A study of Homo sapiens with 6 samples.

Results

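The genes described here encode enzymes that work in the lysosome lumen, all soluble but the membrane-bound HGSNAT, 2 protein cofactors that present lipids to some of these enzymes, and the 2 mannose 6-phosphate receptors that sort newly made enzymes to the organelle. They were chosen by name from a list of 47 symbols and grouped by enzyme class. All 47 were found once among the 58243 gene identifiers of the 6 count files. All 47 also were among the 23884 genes that passed the low-count filter, of which 14443 were protein-coding.

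The study labelled newly made RNA in A375 cells, a human melanoma line, and asked how expression of the phosphatase PRL3 (gene PTP4A3) alters transcription. The EV group (libraries 1, 2 and 3) was stably transfected with an empty vector, and the PRL3 group (libraries 9, 10 and 11) with a plasmid for human PRL3. Both groups were kept in hygromycin B and were pulsed with 500 µM 4-thiouridine (4sU) for 20 min, after which the labelled RNA was purified, depleted of ribosomal RNA and sequenced (4sU-seq). The comparison is thus between 2 stable lines made from 1 parent line, with n = 3 libraries for each, and the labels do not say whether the libraries came from separate cultures, so the p-values measure the spread between these libraries.

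Lysosomal hydrolases work at acid pH and together break down proteins, glycans, lipids and nucleic acids that reach the organelle by endocytosis or autophagy. Most are made in the endoplasmic reticulum, are tagged with mannose 6-phosphate in the Golgi and are carried onward by the receptors M6PR and IGF2R. Inherited loss of one of these enzymes or cofactors can cause a lysosomal storage disease, and several cathepsins are secreted by tumours and can digest extracellular matrix.

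Gene counts per library ranged from 36532207 to 57952035. PTP4A3, the transfected gene, had a normalised read count (scaled by TMM to a common library size) of 217 ± 59.4 (SD, n = 3) in EV and 24387 ± 3796 in PRL3, in the direction of the labels. Reads with a unique alignment but no exon of a gene on their strand made up 28.7% to 41.1% in EV and 62.8% to 69.1% of the unique reads in PRL3, without overlap. This share moved with every comparison below and its part in them was not tested. As the samples are bulk RNA, fewer cells that express a gene and less labelled exon RNA of it per cell cannot be told apart. Of 6 tested melanocyte markers, 2 were lower (SOX10 and S100B) and 2 higher (PAX3 and MIA), though the MIA groups overlapped. Of 5 markers of undifferentiated melanoma, 3 were lower (AXL, SOX9 and NGFR) and none higher. Among tested protein-coding genes, 31.6% were called lower and 15.2% higher, and the 33.3% of melanocyte markers called lower is near that share. SOX10 had a normalised count of 22796 ± 4959.7 in EV and 12613 ± 1788 in PRL3, PAX3 had 1257 ± 83.7 and 2001 ± 186, and MLANA and TYR were at or near 0. Among 8 markers of macrophages and osteoclasts, cell types rich in these enzymes, AIF1 and TYROBP had no read in any library, and the summed normalised count of the 8 was 108 to 174 in EV and 142 to 164 in PRL3.

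Exon read counts of the lysosomal enzyme genes in labelled RNA were mostly lower in PRL3 cells. Reads in introns are not in these counts, so the total new RNA of each gene was not measured. The study itself turned to intronic reads for its elongation analysis, to keep out effects of splicing during transcription and carried-over mRNA. Of the 47 members, 31 were lower in PRL3 at an adjusted p under 0.05, none was higher and 16 did not pass (quasi-likelihood F test of edgeR, Benjamini-Hochberg adjusted over all 23884 genes, used for every adjusted p below). For comparison, 22.7% of all tested genes and 31.6% of tested protein-coding genes were called lower, and 20.0% and 15.2% were called higher. By library values, 32 members had all 3 PRL3 libraries below all 3 EV libraries, as did 36.7% of the protein-coding genes. IGF2R, GALNS and IDS had all 3 PRL3 libraries above EV, as did 22.2% of the protein-coding genes, and 12 members overlapped. A two-sided exact permutation test gives p = 0.1 for each non-overlapping member, the smallest that 3 against 3 allows.

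The median log2 fold change (PRL3 against EV) was -0.78 over the members, with quartiles of -1.29 and -0.13. The same median was 0.11 over all tested genes and -0.15 over the protein-coding genes. Against the mean of the EV libraries, the members' median was -0.80, -0.78 and -0.99 in PRL3 libraries 9, 10 and 11. Of the members, 34 lay below the protein-coding median, 20 were called lower by more than 2-fold, and 10 lay among the lowest 10% of protein-coding genes, which held CTSF, CTSH, PSAP, ACP5, CTSD, CTSZ, NEU1, CTSO, LIPA and FUCA1. None lay among the highest 10%. The members' summed normalised count was 143410, 148750 and 127120 in the EV libraries and 75496, 82824 and 76393 in the PRL3 libraries, without overlap.

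**Figure D1:**
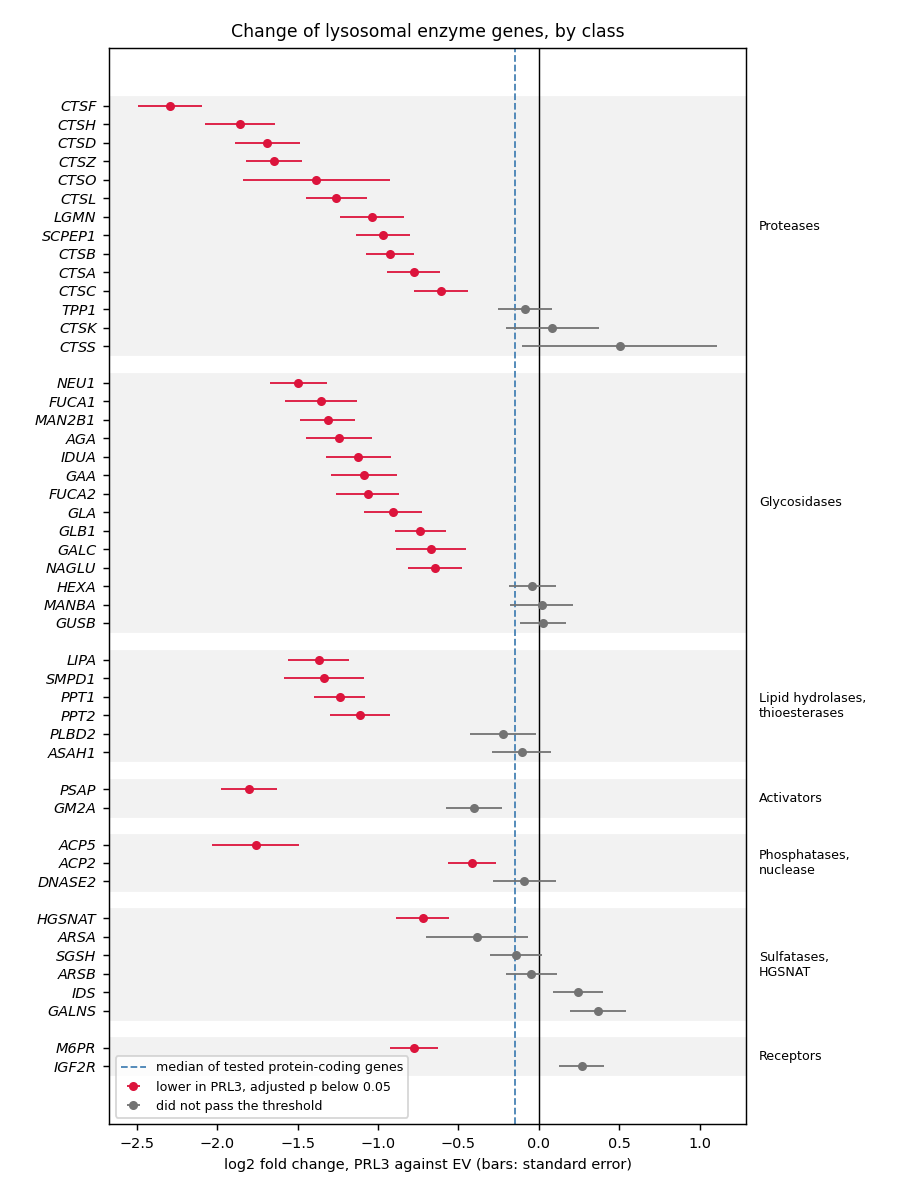
Log2 fold change of each of the 47 genes, PRL3 against EV (x axis), with bars for the standard error, grouped by enzyme class. The 31 genes called lower (red) fill most of the protease, glycosidase and lipid hydrolase classes, while the 5 sulfatases, GUSB and IGF2R (grey) did not pass and lie between -0.38 and 0.37. The dashed line is the protein-coding median of -0.15.

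Promoter sequence was looked at because many lysosomal genes carry the CLEAR element, a motif with CACGTG at its core that the factors TFEB, TFE3 and MITF bind. RefSeq promoter windows (GRCh38.p14, 250 bases before to 50 after the start) matched 34 of the 47 members. CACGTG, which reads the same on both strands, was in 9 of these 34 windows (26.5%), against 9.77% of the windows of tested protein-coding genes and 7.26% of all 35116 windows. The longer TCACGTGA, which contains CACGTG, was in 6 of 34 (17.6%), against 1.77% and 0.98%. The windows below show 30 bases around a match upstream of the start for the 6 members with TCACGTGA, and for CTSF and CTSD, which had CACGTG alone. NEU1, whose window is not shown, also had CACGTG alone. Capitals mark CACGTG.
CTSA, chr20:45891298-45891327, plus strand: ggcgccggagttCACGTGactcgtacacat
GAA, chr17:80101493-80101522, plus strand: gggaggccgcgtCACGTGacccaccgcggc
SCPEP1, chr17:56978092-56978121, plus strand: gtccgcctccgtCACGTGatggggcgccgg
PLBD2, chr12:113358551-113358580, plus strand: gcagagcgcagtCACGTGacccgggctgcg
GALNS, chr16:88857104-88857133, minus strand: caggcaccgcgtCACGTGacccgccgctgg
IGF2R, chr6:159969042-159969071, plus strand: ccgggcggctgtCACGTGacgcggttccgg
CTSF, chr11:66568640-66568669, minus strand: ccctgcgcgcccCACGTGcctcctgtaaac
CTSD, chr11:1763957-1763986, minus strand: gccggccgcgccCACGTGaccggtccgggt

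The same letters stood before genes that were lower and genes that were not. CTSA, GAA, SCPEP1, CTSF, CTSD and NEU1 were called lower, whereas PLBD2, GALNS and IGF2R were not, and IGF2R held TCACGTGA at 3 places. CACGTG was in 6 of the 25 matched windows of lower members (24%) and in 3 of the 9 of members that did not pass (33.3%). For TCACGTGA the counts were 3 of 25 (12%) and 3 of 9 (33.3%). GGGCGG, searched on both strands, was in 31 of 34 members' windows (91.2%) and in 67.8% of those of tested protein-coding genes, and TATAAA was in 0 of 34 against 6.25%. These matches describe letters in the windows and were not tested as binding sites.

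Of the 14 proteases, 11 were lower, and their median log2 fold change was -1.0. Of the 9 cathepsins of the papain family (cysteine proteases), 7 were lower with a median of -1.26. CTSF, a cysteine cathepsin (ENSG00000174080, chr11:66563464-66568879, minus strand), had the lowest log2 fold change of all 47 members. Its normalised count was 1062, 1302 and 947 in the EV libraries and 202, 241 and 233 in the PRL3 libraries. Every PRL3 library was below every EV library by more than 3-fold, and the log2 fold change was -2.29 ± 0.20 (SE, adjusted p = 9.47e-06, edgeR). CTSZ, a carboxypeptidase among the cathepsins (ENSG00000101160, chr20:58985686-59008238, minus strand), had counts of 10945, 14334 and 11134 in EV and 3402, 4661 and 3556 in PRL3. The groups were far apart, with a log2 fold change of -1.65 ± 0.18 (adjusted p = 1.76e-05, edgeR), although 31.7% of its exon bases overlap NELFCD on the opposite strand, which the strand-specific counting keeps apart. CTSH, an aminopeptidase, had counts of 822, 698 and 615 in EV and 227, 195 and 167 in PRL3. Its log2 fold change was -1.86 ± 0.22 (adjusted p = 3.08e-05, edgeR), with no PRL3 library near the EV range.

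CTSL, an endopeptidase, had the highest count per kb of exon among the proteases, at 617 over all libraries. Its normalised count was 6549.7, 5398 and 4013 in EV and 1909.9, 2503 and 2253 in PRL3. The lowest EV library stood well above the highest PRL3 library, and the log2 fold change was -1.26 ± 0.19 (adjusted p = 0.000175, edgeR). CTSD, the main aspartic protease of the lysosome, ranged from 1327 to 1562 in EV and 324 to 518 in PRL3 and was lower, with a log2 fold change of -1.69 ± 0.20 (adjusted p = 3.33e-05, edgeR). In GENCODE release 44, 22.9% of its exon bases are shared with another protein-coding gene on the same strand, and reads from such bases are ambiguous and go uncounted. CTSB, a cysteine protease often studied in invasion, ranged from 6010.2 to 7024 in EV and 3170.1 to 3684 in PRL3 and was lower, at -0.93 ± 0.15 on the log2 scale (adjusted p = 0.000263, edgeR). CTSC, which activates serine proteases of immune cells, had the most normalised counts of any protease, 14350 to 19474 in EV and 9477 to 12057 in PRL3, and was lower by a smaller step, at -0.61 ± 0.17 (adjusted p = 0.00962, edgeR). Its call was lost without PRL3 library 9 (adjusted p = 0.0567, edgeR) or with scaling by library size alone.

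LGMN, the asparaginyl endopeptidase that processes cathepsins, ranged from 736 to 967 in EV and 357 to 491 in PRL3 and was lower, with a log2 fold change of -1.04 ± 0.20. The serine carboxypeptidase SCPEP1 ranged from 1462 to 1834 in EV and 796 to 957 in PRL3 (-0.97 ± 0.17 on the log2 scale). CTSA, which protects NEU1 and GLB1 in a complex, ranged from 3436 to 4416 in EV and 1904 to 2514 in PRL3 (-0.78 ± 0.16 on the log2 scale). All PRL3 values of these 3 genes lay below EV. CTSO was lower, at -1.38 ± 0.46 (adjusted p = 0.026, edgeR) on normalised counts of only 19.3 to 99.1, and this call was lost without any 1 of the 3 PRL3 libraries (adjusted p of 0.0507 to 0.126, edgeR). TPP1, which removes tripeptides, ranged from 1308 to 1574 in EV and 1248 to 1631 in PRL3, with a log2 fold change of -0.09 ± 0.17 (adjusted p = 0.713, edgeR) and overlapping groups. CTSK, the bone collagen protease, had 0.08 ± 0.29 at normalised counts of 123 to 158. CTSS, best known from antigen-presenting cells, had 12.7 to 36.5 in EV and 31.9 to 38.7 in PRL3, with a log2 fold change of 0.50 ± 0.61 (adjusted p = 0.54, edgeR).

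**Figure D2:**
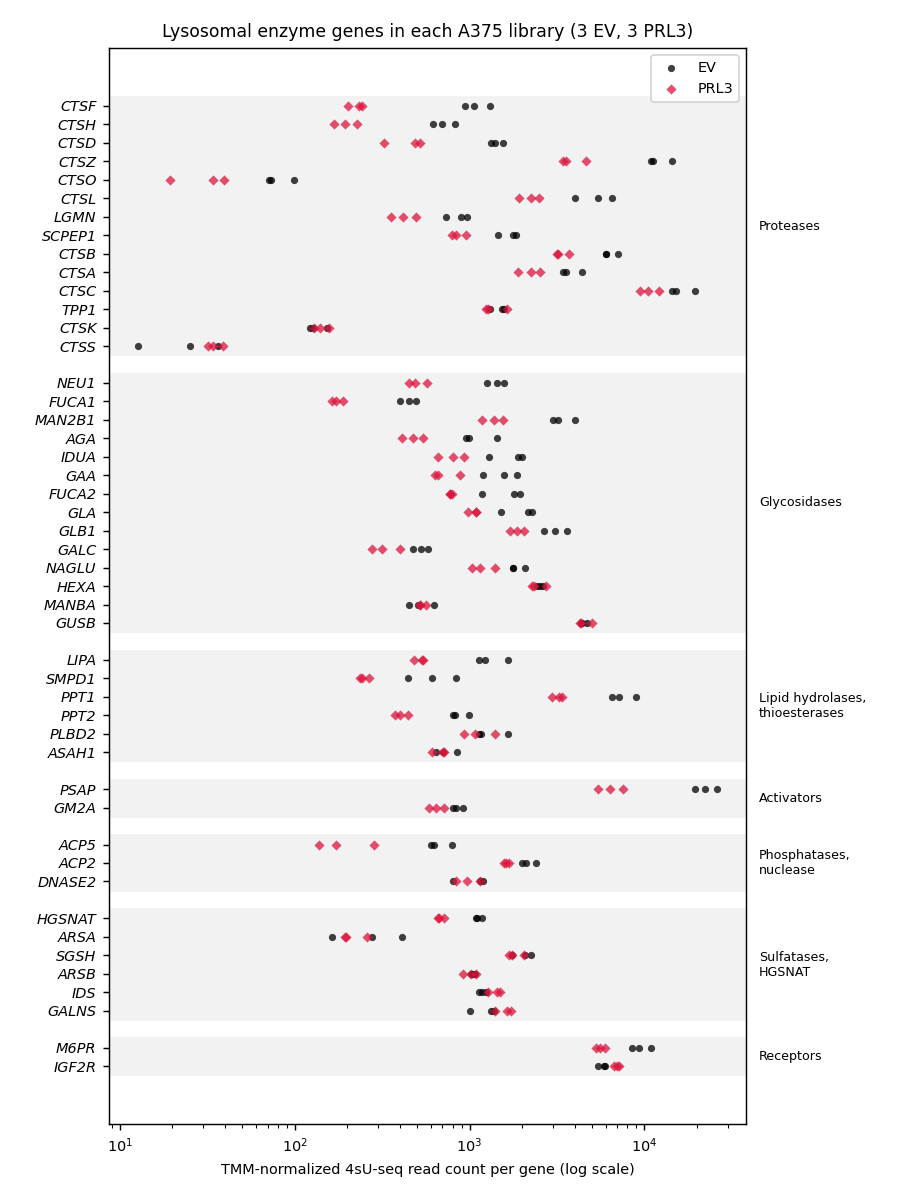
TMM-normalised 4sU-seq read count (x axis, log scale) of each of the 47 genes in the 3 EV libraries (black circles) and the 3 PRL3 libraries (red diamonds), by enzyme class. The PRL3 points lie left of all EV points for 32 genes and right of them for IGF2R, GALNS and IDS.

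The glycosidases, which remove sugars from glycoproteins, glycolipids and glycosaminoglycans, had 11 of 14 members lower and a median log2 fold change of -0.99. The class also held AGA, an amidase rather than a glycosidase in the strict sense. NEU1, the sialidase that works in a complex with CTSA (ENSG00000204386, chr6:31857659-31862905, minus strand), had normalised counts of 1262, 1574 and 1427 in EV and 449.9, 570.0 and 489.9 in PRL3. All PRL3 values lay below the EV range by more than 2-fold, with a log2 fold change of -1.50 ± 0.18 (adjusted p = 3.14e-05, edgeR). MAN2B1, the lysosomal alpha-mannosidase, had counts of 3207, 4021 and 2984 in EV and 1552, 1373 and 1182 in PRL3. Its groups were separate, with a log2 fold change of -1.31 ± 0.17 (adjusted p = 5.86e-05, edgeR), and 13.1% of its exon bases are shared with another protein-coding gene on its strand. FUCA1, an alpha-fucosidase, had 452, 493 and 400.1 in EV and 163, 173 and 189 in PRL3. The log2 fold change was -1.36 ± 0.22 (adjusted p = 0.000344, edgeR), and that of the related FUCA2 was -1.07 ± 0.20, on counts of 1172 to 1938 in EV and 773 to 790.0 in PRL3.

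GUSB, beta-glucuronidase and a gene often used as a reference in expression assays, was the most abundant glycosidase per length, at 1162 counts per kb of exon. It had 4352, 4420.3 and 4692 in EV and 4363, 5022 and 4302 in PRL3. The EV range lay inside the PRL3 range, and the log2 fold change was 0.02 ± 0.14 (adjusted p = 0.909, edgeR). HEXA, the alpha subunit of beta-hexosaminidase, ranged from 2419.9 to 2632 in EV and 2270.3 to 2752 in PRL3, with a log2 fold change of -0.04 ± 0.15 (adjusted p = 0.849, edgeR). MANBA, beta-mannosidase, ranged from 451 to 627 in EV and 518 to 567 in PRL3, at 0.02 ± 0.20 (adjusted p = 0.955, edgeR). For both genes the groups overlapped.

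The other 7 called members of the glycosidase class had all PRL3 libraries below EV. AGA, which cuts the link between asparagine and sugar, ranged from 955 to 1427 in EV and 409.8 to 538 in PRL3, with a log2 fold change of -1.24 ± 0.21. IDUA, which cleaves iduronic acid from glycosaminoglycans, ranged from 1291 to 2004 in EV and 656 to 923 in PRL3 (-1.12 ± 0.20 on the log2 scale). The acid alpha-glucosidase GAA breaks down glycogen, and its loss causes Pompe disease. It ranged from 1192 to 1860.1 in EV and 632 to 879 in PRL3, with a log2 fold change of -1.09 ± 0.20. The alpha-galactosidase GLA, deficient in Fabry disease, ranged from 1515 to 2264 in EV and 977 to 1090.1 in PRL3 (-0.91 ± 0.18 on the log2 scale). GLB1, the beta-galactosidase used to stain senescent cells, ranged from 2669 to 3605 in EV and 1714 to 2041 in PRL3 and was lower, at -0.74 ± 0.16 (adjusted p = 0.00239, edgeR). NAGLU, a heparan sulfate enzyme, ranged from 1761 to 2079 in EV and 1029 to 1404 in PRL3, at -0.64 ± 0.17 (adjusted p = 0.00776, edgeR). GALC, the galactosylceramidase deficient in Krabbe disease, ranged from 476 to 575 in EV and 278 to 402 in PRL3 and was lower, at -0.67 ± 0.22 (adjusted p = 0.0232, edgeR). The GALC call was lost without EV library 1 and without PRL3 library 9 or 10 (adjusted p of 0.0527, 0.0879 and 0.121, edgeR), and also with upper-quartile scaling, library size alone or protein-coding genes only (0.0876, 0.548 and 0.0566). The NAGLU call was lost without PRL3 library 11 (adjusted p = 0.0604, edgeR).

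Of the 6 lipid hydrolases and thioesterases, 4 were lower, with a class median of -1.18. PPT1, palmitoyl-protein thioesterase (ENSG00000131238, chr1:40072710-40097260, minus strand), removes fatty acids from proteins and was the most abundant of them, with 1594 counts per kb of exon. Its normalised counts were 8943, 7168 and 6538 in EV and 3229, 3387 and 2975 in PRL3. Every PRL3 library was below the lowest EV library, with a log2 fold change of -1.24 ± 0.16 (adjusted p = 5.19e-05, edgeR). LIPA, the acid lipase that frees cholesterol from its esters, had 1669.7, 1232 and 1128 in EV and 484, 535 and 541 in PRL3. The groups were separate and the log2 fold change was -1.37 ± 0.19 (adjusted p = 9.48e-05, edgeR). PPT2, a second thioesterase, had 804, 825 and 998 in EV and 399, 444 and 373 in PRL3, a log2 fold change of -1.11 ± 0.19 (adjusted p = 0.000383, edgeR), and 49.3% of its exon bases are shared with the readthrough gene PPT2-EGFL8 on the same strand. SMPD1, acid sphingomyelinase, ranged from 443 to 837 in EV and 238 to 266 in PRL3 and was lower, at -1.34 ± 0.25 (adjusted p = 0.00077, edgeR). PLBD2, a phospholipase-like protein, ranged from 1138 to 1669 in EV and 933 to 1393 in PRL3, at -0.22 ± 0.20. ASAH1, acid ceramidase, ranged from 645 to 843 in EV and 614 to 711 in PRL3, at -0.11 ± 0.18. Neither passed, and their groups overlapped.

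PSAP, the precursor of the saposins that help sphingolipid hydrolases reach their substrates (ENSG00000197746, chr10:71816298-71851251, minus strand), was the most abundant member per length, at 4662 counts per kb of exon. Its normalised counts were 22170, 26083 and 19484 in EV and 5438, 7589 and 6377 in PRL3. Each PRL3 library was under the lowest EV library by more than 2-fold, and the log2 fold change was -1.80 ± 0.18 (adjusted p = 1.29e-05, edgeR). GM2A, the activator that presents ganglioside to beta-hexosaminidase A, had 912, 839.8 and 809 in EV and 712, 641 and 583 in PRL3. Its groups did not overlap, but the log2 fold change of -0.40 ± 0.17 did not pass (adjusted p = 0.0769, edgeR). GM2A was called lower by DESeq2 (adjusted p = 0.0474) and with scaling to all uniquely aligned reads (adjusted p = 0.00137, edgeR). PSAP alone made up 16.1% ± 1.24 of the members' counts in EV and 8.24% ± 0.98 in PRL3 (SD, n = 3).

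Among the phosphatases and the nuclease, 2 of 3 were lower. ACP5, the tartrate-resistant acid phosphatase known as a marker of osteoclasts, had 629.6, 794 and 601 in EV and 173, 284 and 138 in PRL3. The groups were well apart, and the log2 fold change was -1.76 ± 0.27 (adjusted p = 0.00021, edgeR). ACP2, the lysosomal acid phosphatase, had 2006, 2383 and 2106 in EV and 1684, 1618 and 1566 in PRL3. Its log2 fold change was small, at -0.42 ± 0.15 (adjusted p = 0.0376, edgeR), and the call was lost without EV library 2 or any 1 PRL3 library (adjusted p of 0.0919 to 0.148, edgeR), and also with other scalings and with no low-count filter. DNASE2, the acid DNase that digests DNA of engulfed cells, had 804, 1196 and 1150.3 in EV and 1148, 970.3 and 839 in PRL3. These overlapped, with -0.09 ± 0.20 (adjusted p = 0.741, edgeR).

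The sulfatases, which remove sulfate from glycosaminoglycans and sulfatides, had no member called. None of the 5 passed in either direction, and their median log2 fold change was -0.05. SGSH, which acts on heparan sulfate and had the highest count per kb of exon here (289), had 1746, 2067 and 2239.6 in EV and 1747, 2054 and 1679.8 in PRL3. The groups overlapped, with a log2 fold change of -0.14 ± 0.16 (adjusted p = 0.507, edgeR). ARSB, which removes sulfate from dermatan and chondroitin sulfate, ranged from 1022 to 1068 in EV and 922 to 1086 in PRL3, at -0.05 ± 0.16 on the log2 scale. ARSA, the sulfatidase, ranged from 164 to 411 in EV and 195 to 259.7 in PRL3, at -0.38 ± 0.32, and its EV libraries spread more widely than its PRL3 libraries. The ARSA value turned on single EV libraries, at -0.68 and called lower without EV library 3 (adjusted p = 0.0483, edgeR) and at -0.00515 without EV library 2 (adjusted p = 0.992, edgeR). GALNS, the keratan sulfate sulfatase, had 999.9 to 1372 in EV and 1401 to 1727 in PRL3, and IDS, the iduronate sulfatase, 1130 to 1242 and 1280 to 1485, each without overlap. Neither passed, with 0.37 ± 0.17 (adjusted p = 0.107, edgeR) for GALNS and 0.24 ± 0.15 (adjusted p = 0.231, edgeR) for IDS. Of the exon bases of IDS, 75% are shared with another gene on its strand. GALNS and IDS were called higher when scaled by the upper quartile, by library size alone or over protein-coding genes only, and the sulfatase median was then 0.13, 0.45 and 0.13. With scaling to all uniquely aligned reads, SGSH, ARSA and ARSB were instead called lower and the sulfatase median was -0.53.

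HGSNAT, the membrane-bound acetyltransferase of heparan sulfate breakdown placed in the same class, was called lower. It had 1180.1, 1106 and 1083 in EV and 667, 658 and 715 in PRL3. The groups were separate, with a log2 fold change of -0.72 ± 0.16 (adjusted p = 0.00287, edgeR). Within heparan sulfate breakdown, then, IDUA, NAGLU and HGSNAT were lower, while IDS, SGSH and GUSB did not pass. Whether these genes differ from each other was not tested.

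Of the 2 sorting receptors, 1 was lower and 1 did not pass. M6PR, the cation-dependent mannose 6-phosphate receptor, had 10940, 9326 and 8436 in EV and 5265, 5915 and 5565 in PRL3. It was lower, with a log2 fold change of -0.78 ± 0.15 (adjusted p = 0.00111, edgeR), and 30.9% of its exon bases overlap PHC1 on the opposite strand. IGF2R, the cation-independent receptor that also binds IGF2 (ENSG00000197081, chr6:159969082-160113507, plus strand), had 5897, 5975 and 5412 in EV and 7138, 6961 and 6671 in PRL3. All 3 PRL3 values were above EV, but the log2 fold change of 0.27 ± 0.14 did not pass (adjusted p = 0.138, edgeR). IGF2R was called higher when scaled by the upper quartile, by library size alone or over protein-coding genes only (0.45, 0.76 and 0.45). Of the members' counts, IGF2R made up 4.13% ± 0.12 in EV and 8.86% ± 0.54 in PRL3, and GUSB 3.23% ± 0.40 and 5.82% ± 0.22 (SD, n = 3), shares that do not depend on the scaling.

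The scaling between libraries moved all values together. The members' median ranged from -0.29 with library size alone to -1.26 with scaling to all uniquely aligned reads, and the protein-coding median moved from 0.34 to -0.63. The gap between the 2 medians was -0.63 with both, and as reported. With library size alone 21 members were lower and 6 higher (GUSB, HEXA, ARSB, GALNS, IDS and IGF2R), and the calls of CTSA, CTSC, CTSO, GALC, GLA, GLB1, NAGLU, HGSNAT, M6PR and ACP2 were lost, against 16.9% of protein-coding genes lower and 36.9% higher. With all uniquely aligned reads 41 were lower and none higher, the further 10 being TPP1, HEXA, GUSB, SGSH, ARSA, ARSB, ASAH1, PLBD2, GM2A and DNASE2, against 50.1% and 4.03%. The 21 members called lower in all 16 alternatives were CTSB, CTSD, CTSF, CTSH, CTSL, CTSZ, LGMN, SCPEP1, GAA, IDUA, NEU1, MAN2B1, FUCA1, FUCA2, AGA, SMPD1, LIPA, PPT1, PPT2, PSAP and ACP5.

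**Figure D3:**
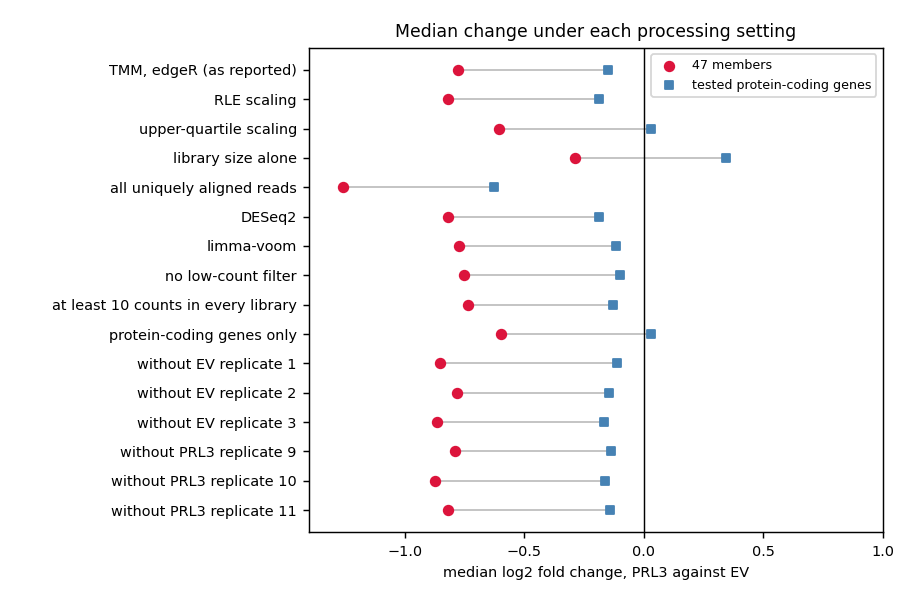
Median log2 fold change (x axis) of the 47 members (red circles) and of the tested protein-coding genes (blue squares) under each processing setting (y axis). Both medians shift with the scaling, between -1.26 and -0.29 for the members. The members' median lies left of the protein-coding median in every setting shown, an order that a change of scaling alone cannot alter.

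Gene length went with the change in these libraries. Across the 47 members, Spearman's rho between gene length (first to last annotated base) and log2 fold change was 0.33, and across the 14443 protein-coding genes it was 0.30, both given as descriptions over genes that share the same libraries. Of the 12 members shorter than 10 kb, 9 were lower (75%) with a median of -0.78, against 48.4% and -0.64 for protein-coding genes of that length. Between 10 and 20 kb, 7 of 9 members were lower (77.8%) with a median of -1.09, against 41.8% and -0.39. Between 20 and 40 kb, 9 of 14 members were lower (64.3%) with a median of -1.10, against 36.1% and -0.24. At 40 kb and over, 6 of 12 were lower (50%) with a median of -0.51, against 19.0% and 0.05. The protein-coding medians rose with each step in length, whereas those of the members did not. The part of length in the members' change was not tested.

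**Figure D4:**
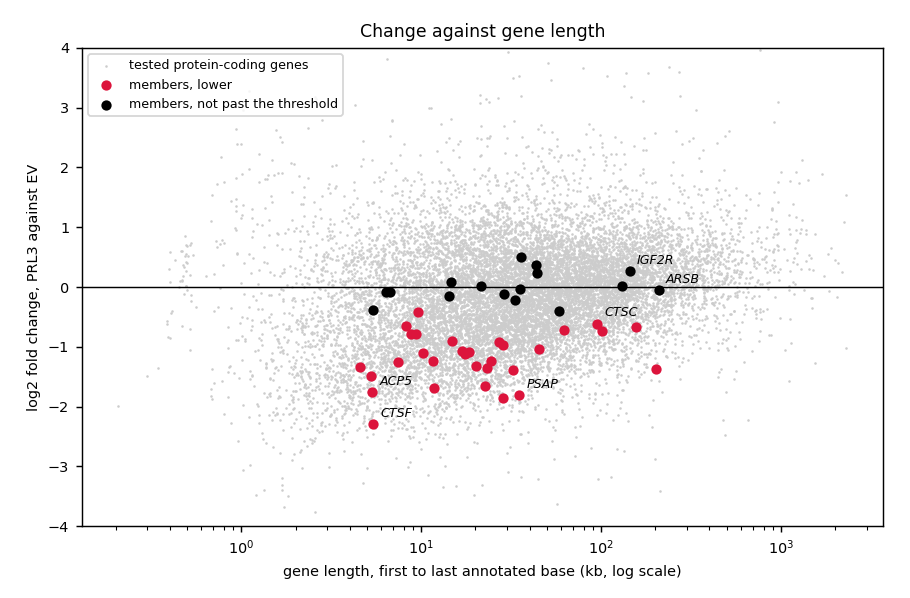
Log2 fold change, PRL3 against EV (y axis), against gene length in kb (x axis, log scale), for tested protein-coding genes (grey), members called lower (red) and members that did not pass (black). The protein-coding median is -0.64 under 10 kb and 0.05 at 40 kb and over, and 28 protein-coding genes fall outside the plotted range of -4 to 4.

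Genes around the hydrolases were counted from further lists. Of 28 other tested lysosomal hydrolases and cofactors, 15 were lower (53.6%) and 4 higher, beside 31.6% and 15.2% of tested protein-coding genes. The lower ones with the smallest p were CREG1 (-1.83 ± 0.17), the dipeptidyl peptidase DPP7 (-2.35 ± 0.23) and PLD3 (-1.86 ± 0.20). The higher ones included ARSK (0.67 ± 0.21), a further sulfatase, and SMPDL3A (0.97 ± 0.34). Of 16 genes for delivery and activation of the enzymes, 7 were lower (43.8%, beside 31.6% of protein-coding genes) and 1, CLN8, was higher (0.83 ± 0.15). SORT1, a sorting receptor that carries PSAP, was lower, at -0.87 ± 0.17 (adjusted p = 0.00102, edgeR), and SUMF1, which activates sulfatases, at -0.74 ± 0.16 (adjusted p = 0.00277, edgeR).

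Of 23 lysosomal membrane proteins, 9 were lower and 2 higher, with a median of -0.05. The 39.1% called lower were near the 31.6% of all tested protein-coding genes, of which 15.2% were higher. LAPTM4B (-2.18 ± 0.16), CD63 (-1.65 ± 0.18) and LAPTM4A (-1.54 ± 0.18) were lower, and CLN3 (2.20 ± 0.36) and SPNS1 (1.52 ± 0.44) were higher, at low normalised counts of 28.01 to 236 and 25.6 to 113 over the 6 libraries. The cytosolic and secreted inhibitors of cathepsins had 3 of 4 tested genes lower, beside the same 31.6%. CSTB, cystatin B, had 4938, 5528 and 4908 in EV and 1828, 2255 and 1941 in PRL3, a log2 fold change of -1.35 ± 0.15 (adjusted p = 2.17e-05, edgeR). CST3, cystatin C, was lower, at -1.51 ± 0.18 and SERPINB1, at -0.96 ± 0.20.

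Of the 4 MiT/TFE factors, which switch on lysosomal genes, only TFE3 passed. That is 25% lower, beside 31.6% of tested protein-coding genes. TFE3 had 3279.7, 4373 and 3294 in EV and 2157, 2289 and 2133 in PRL3. It was lower in each PRL3 library, with a log2 fold change of -0.73 ± 0.16 (adjusted p = 0.0023, edgeR). MITF had 1492, 1208 and 1433 in EV and 1714, 1795 and 1809.5 in PRL3, all higher than EV, with 0.36 ± 0.15 that did not pass (adjusted p = 0.0738, edgeR). TFEB had 65.8 to 143 in EV and 81.3 to 99.7 in PRL3 and TFEC 12.03 to 39.0 and 15.4 to 23.1, and both overlapped.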

How the data were processed

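Deposited files held whole-number read counts per Ensembl gene, 1 file per library. According to the labels and the methods of the study, the authors checked reads with FastQC 0.11.3, aligned them to GRCh38 with STAR 2.5.1b and counted them with HTSeq 0.6.1 on the reverse strand against Ensembl release 91. The counts are not normalized. Lines that name no gene (no feature, ambiguous, not unique) were not tested. They also stayed out of library sizes, except that scaling to all uniquely aligned reads added the no feature and ambiguous reads. No feature took 28.7% to 69.1% of uniquely aligned reads, and ambiguous 1.67% to 5.01%. Counting error is small beside the spread between libraries for genes with many reads, and is larger for genes with few, such as CTSS and CTSO. No 2 libraries agreed within sampling noise.

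Symbols, biotypes and coordinates came from GENCODE release 44, on the same build, which held 57532 of 58243 identifiers. PRL3 was set against EV with edgeR 4.0.16 under R 4.3.3 (TMM scaling, filterByExpr, quasi-likelihood F test, Benjamini-Hochberg adjustment over 23884 genes, threshold 0.05). Normalised counts are counts over effective library size, times its mean. SE was derived from the F statistic. A two-sided exact permutation test of normalised counts was run for single genes. DESeq2 1.42.0, limma 3.58.1 (voom), other scalings, other filters and leaving out each library were alternatives. The scripts were tested on simulated data.

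The 47 members and the other gene lists were chosen with earlier results of these data known. In each class, values per library are given for up to 3 called members of smallest p, for the member with the highest count per kb of exon, and for all members of a class of at most 3; in other lists at most 3 genes are named in each direction. MITF, TFEB and TFEC were named after their values were seen. Of 88 listed pathway symbols, 1 was not matched.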

Additional observations from a re-analysis of the deposited data

Results flagged for a closer look

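Reads that aligned uniquely but met no exon of a gene on their strand form a class that no comparison of single genes uses. Their share of the unique reads averaged 66.27% over the PRL3 libraries and 33.3% over the EV libraries, with no overlap (two-sided exact permutation p = 0.1, the smallest that 3 against 3 allows). These reads are not assigned to genes in the counts, and whether lysosomal genes hold any of them was not tested.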

How the results depend on the processing

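The members' median stayed below the protein-coding median in all 16 alternatives. A change of scaling shifts all log2 fold changes nearly alike, so it could not alter that order. The stricter adjusted p uses the same fit and could not alter it either. The members' median also stayed below 0 throughout. It was -0.60 with upper-quartile scaling (29 lower, 3 higher), -0.60 with protein-coding genes only (29 and 3), -0.29 with library size alone (21 and 6) and -1.26 with all uniquely aligned reads (41 and 0), where the scaling itself shifts all genes. RLE scaling, DESeq2, limma-voom, both other filters and an adjusted p of 0.01 gave 28 to 32 lower and none higher. Each library left out in turn gave 27 to 32 lower, none higher and a median of -0.87 to -0.78. Log2 fold changes of members that turned direction were, with library size alone, TPP1 0.41, HEXA 0.46, SGSH 0.34, ARSA 0.12, ARSB 0.45, ASAH1 0.38, PLBD2 0.28, GM2A 0.0945, ACP2 0.0799 and DNASE2 0.40. With upper-quartile scaling they were TPP1 0.0986, HEXA 0.14, SGSH 0.0304, ARSB 0.13, ASAH1 0.0742 and DNASE2 0.0841, and with protein-coding genes only TPP1 0.0960, HEXA 0.14, SGSH 0.0343, ARSB 0.13, ASAH1 0.0735 and DNASE2 0.0881. With all uniquely aligned reads they were CTSK -0.40, GUSB -0.45, MANBA -0.45, GALNS -0.11, IDS -0.24 and IGF2R -0.22. GUSB and MANBA were -0.0140 and -0.0176 with RLE scaling and -0.0139 and -0.0181 with DESeq2, and HEXA was 0.00302 with at least 10 counts in every library. Without 1 library, GUSB ranged from -0.0451 to 0.0738, HEXA from -0.12 to 0.0189, MANBA from -0.0679 to 0.15, ARSB from -0.0939 to 0.0228, ASAH1 from -0.17 to 0.00701 and DNASE2 from -0.25 to 0.0297. None of these 6 was called as reported. No paired analysis was possible because EV and PRL3 carry different replicate numbers. The CTSS and CTSO values rest on few reads.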
